A study of Mus musculus with 2 samples.

Results

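The type 17 program was described through 9 of the 31053 genes in the deposited matrices: the cytokines Il17a, Il17f and Il22, the receptors Il23r and Il1r1, the nuclear receptor Rora, the membrane proteins Tmem176a and Tmem176b, and the scavenger receptor Cd163l1. The genes were chosen by name from a fixed list, and all 9 were found. Type 17 lymphocytes are the T cells and innate lymphoid cells that make IL-17 and IL-22 at mucosal surfaces, where these cytokines act on epithelium and recruit neutrophils. The nuclear receptor ROR alpha takes part in the lineage, and its cells respond to IL-23 and IL-1. IL-27 is a cytokine known to restrain the T helper form of this program.

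Both groups were TxA23 mice, which have autoimmune gastritis driven by a transgenic T cell receptor. Pumps holding 200 uL were put under the skin of 3-month-old mice for 4 weeks, with 800 ng of recombinant IL-27 (covalently linked p28 and EBI3) in 3 females or PBS alone in 1 male and 1 female. Live CD45+ cells were sorted from a flush of the stomach lining, and RNA molecules were counted in single cells as unique molecular identifiers (UMIs) with 10x Genomics 5-prime chemistry. Each group was deposited as 1 library with no label for its mice, so treatment had no labelled replicate. No test was run, and the intervals below cover counting error only. By their suffixes the cell barcodes came from 3 wells in IL-27 and 2 in PBS, but the labels do not say that a well is a mouse, so wells are shown as a description.

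After filtering, 19972 IL-27 and 11693 PBS cells remained, with medians of 3053 and 2946 UMIs. PBS well 2 held 3074 Y-linked UMIs and the other wells 0, so sex and treatment cannot be told apart where a result rests on that well. Another 183 of its cells lacked Y-linked UMIs and had Xist. The PBS wells thus split by sex for the most part, so their cells were not an even mix of the male and the female. No doublet was removed from PBS well 2, because the doublet caller marked 1 cell there (0.0183%). Between 42 and 66 cell barcodes were shared by any pair of wells, both within and between libraries.

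Cells were placed in 14 gates by UMIs of marker genes, none of them a member, and 27029 of 31665 cells fell in 1 gate. The T cell gates held 2509 conventional CD4 T cells (Cd4 without Foxp3), 336 regulatory T cells (Cd4 with Foxp3), 523 cells with Trdc, 1898 CD8 T cells and 2171 double-negative T cells (no Cd4, Cd8 or Trdc). The innate lymphoid gates described here held 494 NK and ILC1 cells (Ncr1) and 58 group 2 innate lymphoid cells (ILC2). Another innate gate held 4 cells, too few to describe, with 2 UMIs each of Il23r and Il1r1, 10 of Tmem176a and 9 of Tmem176b. For these genes that is more per UMI than in the Trdc gate, and orders of levels below cover the other 13 gates. Foxp3 is sparsely detected, so the conventional gate can hold regulatory cells without a Foxp3 UMI. The B cell gate of 18657 cells was used for comparison, as a cell type outside the lineage.

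The Trdc gate was labelled gamma-delta T, and the data went against that label in part. Trdc encodes the constant region of the delta receptor chain, yet 304 of the 523 gated cells also had Trac, the alpha chain, and 320 had a gamma constant region. Among all 1026 T cells with Trdc, 332 had Cd8b1 and 177 had Cd4. These cells are therefore called Trdc-gated. Cells without Trac and with a gamma constant region numbered 93 for IL-27 and 46 for PBS.

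The members are protein-coding genes on chromosomes 1, 6, 7, 9 and 10 (GENCODE M21, GRCm38). Rora spans bases 68653786 to 69388246 of chromosome 9 and Cd163l1 140218267 to 140231145 of chromosome 7, both on the plus strand. The windows around the start sites of 4 members are shown because of what those genes share. ROR alpha binds DNA at the half-site AGGTCA, and Il17a and Il23r, with the Trdc gate highest among the 13 described, held it. Il1r1 and Cd163l1, also highest in that gate among the 13, did not, and Il17f, with 0 UMIs in that gate, held 1. Each window runs from 250 bases before to 50 bases after the start site (RefSeq, GRCm38.p6). It is printed 5-prime to 3-prime on the gene's strand, with the half-site in capitals, as AGGTCA or its reverse complement TGACCT. The Il17a window is chr1:20730655-20730954 on the plus strand, and the Il23r window chr6:67491806-67492105 on the minus strand. Il17a had 1 half-site, 120 bases before the start site, and Il23r had 2, at 229 and 66 bases before it.
Il17a: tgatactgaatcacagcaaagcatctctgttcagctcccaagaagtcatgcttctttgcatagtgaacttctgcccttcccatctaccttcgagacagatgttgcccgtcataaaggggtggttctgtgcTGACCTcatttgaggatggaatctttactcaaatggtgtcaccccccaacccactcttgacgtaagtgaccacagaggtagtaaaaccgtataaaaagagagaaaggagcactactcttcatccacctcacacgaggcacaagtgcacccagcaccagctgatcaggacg
Il23r: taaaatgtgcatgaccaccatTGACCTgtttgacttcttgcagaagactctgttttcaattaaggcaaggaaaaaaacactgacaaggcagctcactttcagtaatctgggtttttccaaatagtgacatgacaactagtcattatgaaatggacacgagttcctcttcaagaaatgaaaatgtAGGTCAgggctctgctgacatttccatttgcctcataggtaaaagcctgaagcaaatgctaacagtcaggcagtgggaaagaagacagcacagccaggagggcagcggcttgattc

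Beyond Il17a, Il23r and Il17f, no window of the other 6 members held these letters. With both strands searched, 3 of 13 windows of the 9 members had a match (23.1%), beside 16.3% of all 32851 windows of the same length. A match is a description of the letters and not a binding site.

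Tmem176a and Tmem176b are neighbours on chromosome 6, transcribed in opposite directions from start sites 109 bases apart for the pair of windows shown. The Tmem176a window is chr6:48841233-48841532 on the plus strand and the Tmem176b window chr6:48841325-48841624 on the minus strand, and they share 208 bases. The annotated genes overlap from 48840919 to 48841496, a stretch of 578 bases. Whether the counting used strand is not given in the sources used here, so reads from the overlap cannot be assigned to 1 gene of the pair.
Tmem176a: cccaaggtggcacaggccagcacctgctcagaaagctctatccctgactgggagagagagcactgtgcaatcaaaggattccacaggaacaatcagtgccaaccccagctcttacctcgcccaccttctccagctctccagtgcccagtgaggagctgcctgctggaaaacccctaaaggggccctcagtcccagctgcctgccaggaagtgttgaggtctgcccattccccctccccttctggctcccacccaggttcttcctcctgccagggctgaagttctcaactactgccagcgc
Tmem176b: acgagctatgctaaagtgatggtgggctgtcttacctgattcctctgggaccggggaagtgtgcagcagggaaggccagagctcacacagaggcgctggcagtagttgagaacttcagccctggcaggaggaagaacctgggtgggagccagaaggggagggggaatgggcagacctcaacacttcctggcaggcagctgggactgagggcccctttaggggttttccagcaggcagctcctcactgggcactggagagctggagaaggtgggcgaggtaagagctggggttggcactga

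Il17a, the defining cytokine of the lineage, was found in 8 cells, 1 of 19972 under IL-27 and 7 of 11693 under PBS. The IL-27 cell, in the conventional CD4 T gate, held 1 UMI, and the 7 PBS cells held 43. Of the PBS cells, 5 came from well 2 and 2 from well 1. The Trdc gate held 36 of the 39 gated Il17a UMIs (92.3%), in 4 cells, and the conventional CD4 T gate held 1. With the Trdc gate limited to cells without Trac and with a gamma constant region, chosen after seeing the data, that share was 40%. Most of the 36 UMIs were thus in cells with Trac or without a gamma constant region UMI. The level of Il17a in Trdc-gated cells was 0 CPM (UMIs per 1000000 UMIs of the gated cells) in each IL-27 well. It was 3.01 CPM in PBS well 1 and 69.6 CPM in PBS well 2. A single cell of PBS well 2 gave 27 of the 36 UMIs, so the level is mainly that of 1 cell. Il17a in PBS was 19.9 times the 3-count floor over the IL-27 Trdc-gated cells, and 4.97 times it without the UMIs of that cell. That floor leaves out the counting error of the PBS value, and the exact 95% interval of the ratio of PBS over IL-27 starts at 15.35. The interval takes UMIs as independent, whereas by cells Il17a was in 4 of 167 PBS and 0 of 356 IL-27 Trdc-gated cells.

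The other cytokines were scarcer. Il17f, the partner of IL-17A in heterodimers, gave 3 UMIs in 3 cells, all in the IL-27 library, with 2 of them in the conventional CD4 T gate and 1 in the double-negative gate. Il22, which acts on epithelial cells, gave 1 UMI in an ILC2-gated IL-27 cell and 2 UMIs in PBS well 1, in a conventional CD4 and a double-negative T cell. No cell held more than 1 of the 3 cytokines. In conventional CD4 T cells the 3 cytokines together were found in 4 of 2509 cells, too few to compare the libraries.

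The receptors Il23r and Il1r1, through which IL-23 and IL-1 drive the program, were low in the 13 gates described and highest among them in the Trdc gate. Il23r was 8.11 CPM there (18 UMIs in 12 cells) and 0.931 CPM in conventional CD4 T cells (10 UMIs). Il1r1 was 9.46 CPM in Trdc-gated cells (21 UMIs in 15 cells) and 3.13 CPM in regulatory T cells. By well, Il1r1 in Trdc-gated cells was 2.06, 13.1 and 0 CPM in the IL-27 wells and 6.02 and 25.8 CPM in the PBS wells, with overlap between groups. Il23r in the same cells was 0, 10.5 and 3.86 CPM in the IL-27 wells and 3.01 and 21.9 CPM in the PBS wells, again overlapping. IL-27 well 2 and PBS well 2 were the high wells for both receptors.

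Rora, which encodes ROR alpha, was present in every T cell and innate lymphoid gate, with its highest levels outside the Trdc gate. ILC2 had the highest level, 272 CPM over both libraries, followed by regulatory T cells at 108 CPM and NK and ILC1 cells at 89.0 CPM, and the intervals of the last pair overlapped. Trdc-gated (42.8 CPM) and double-negative T cells (42.0 CPM) did not differ in level beyond counting error, and conventional CD4 T cells were at 30.7 CPM. CD8 T cells were at 5.17 CPM and B cells at 0.725 CPM. Rora UMIs were found in 27.1% of IL-27 and 36.0% of PBS regulatory T cells (medians of 3398.5 and 3367 UMIs), beside 0.0910% and 0.196% of B cells.

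Tmem176a and Tmem176b, ion channel-like proteins found in type 17 lymphocytes and in myeloid cells, were highest outside the T lineage. Macrophages and monocytes (24 cells) had 821 CPM of Tmem176b, conventional dendritic cells 207 CPM, ILC2 195 CPM and NK and ILC1 cells 188 CPM. Among T cells the Trdc gate led with 119 CPM, followed by double-negative (41.6 CPM), conventional CD4 (24.9 CPM), regulatory (15.04 CPM) and CD8 T cells (3.104 CPM). Tmem176a had the same order over the T cell gates, at 93.7, 29.3, 16.4, 13.8 and 4.23 CPM. B cells had 8.99 CPM of Tmem176b, above the level in CD8 T cells.

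Cd163l1, also called Scart1, encodes a scavenger receptor of the family known from gamma-delta T cells, and most of its gated UMIs were in the Trdc gate. It was 87.4 CPM in Trdc-gated cells, 5.17 CPM in CD8 T cells, 3.27 CPM in NK and ILC1 cells and 3.22 CPM in double-negative T cells. Conventional CD4 T cells held 3 UMIs (0.279 CPM), regulatory T cells 0, and 18657 B cells 1. The Trdc gate held 69.3% of its gated UMIs.

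**Figure D1:**
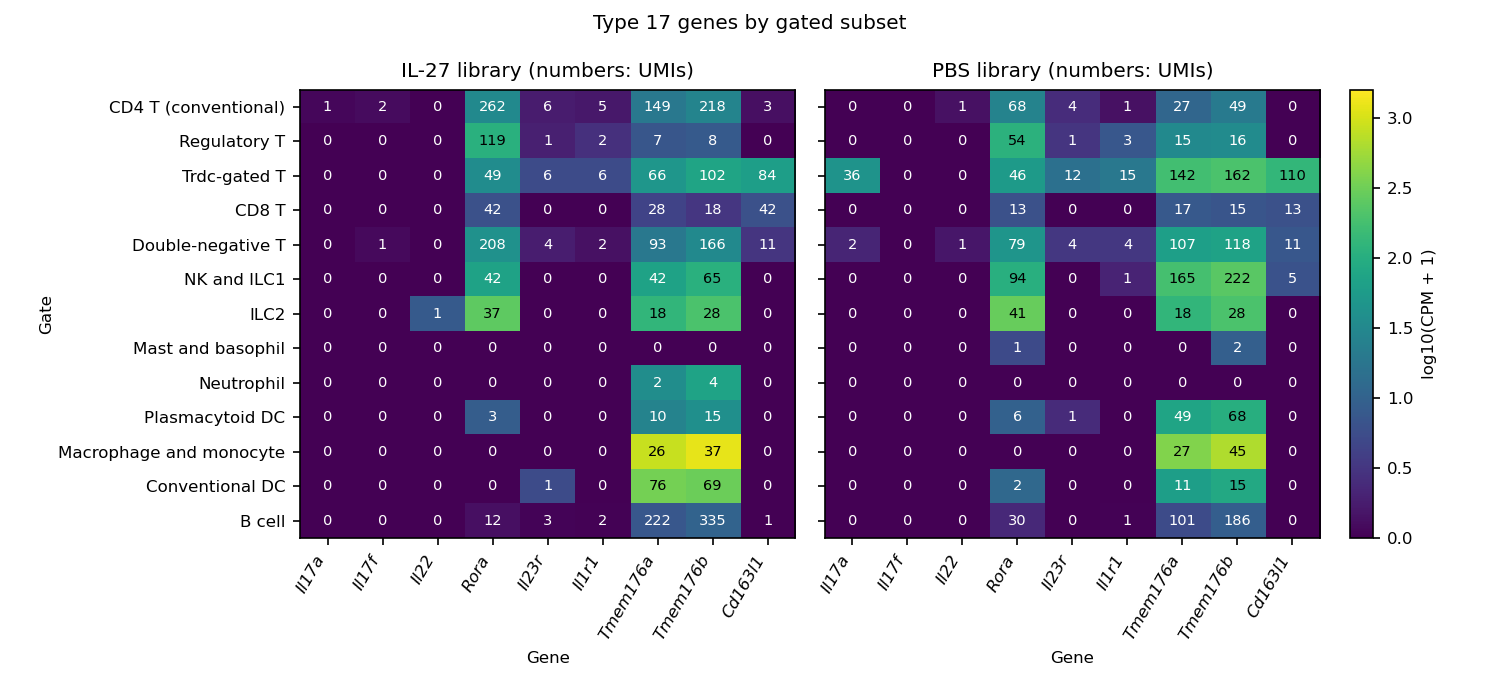
Levels of the 9 genes (columns) in 13 gates (rows) for the IL-27 library (left) and the PBS library (right), coloured by log10(CPM + 1), with the number of UMIs printed in each cell of the grid. Il17a and Cd163l1 lie mainly in the Trdc-gated row, Rora spans the T and innate lymphoid rows, and Tmem176a and Tmem176b reach their highest levels of these rows in macrophages and monocytes.

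Genes with profiles most like the members were sought over 20 gate-by-library profiles of at least 30 cells. Tmem176a and Tmem176b were each other's nearest gene (Pearson r 0.981). Cd163l1 was nearest to 5830411N06Rik, known as Scart2 (r 0.958), and Rora had Asb2 (r 0.926) and Tnfrsf25 (r 0.892) among its nearest genes. The profiles share libraries and depth, and the values are a description.

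The members were not spread evenly over Trdc-gated cells. A split chosen after the values were seen took cells with at least 2 of 3 genes of interleukin 17-producing gamma-delta T cells: the kinase gene Blk, the transcription factor gene Sox13 and 5830411N06Rik. These 41 marker-positive cells, of 523, held 28 of the 36 Il17a UMIs of the gate, and 27 of the 28 were in 1 cell. In them Tmem176b was 722.5 CPM, Tmem176a 634.5 CPM, Cd163l1 445 CPM, Rora 139 CPM, and Il23r and Il1r1 46.3 CPM each. The 482 cells under 2 markers had 53.9 CPM of Tmem176b, 35.4 of Tmem176a, 48.9 of Cd163l1, 32.4 of Rora, 3.99 of Il23r and 5.49 of Il1r1. Of the marker-positive cells, 37 had a gamma constant region and 19 had Trac. They were deeper, with a median of 4721 UMIs against 3758 under 2 markers. Cytokine cells with 2 or more markers also lay outside the Trdc gate. The double-negative T cell with Il17f had 4 UMIs of Blk, 2 of Sox13 and 7 of 5830411N06Rik, and 0 of Trdc. The double-negative T cell with Il17a had 5 of Blk and 1 of Sox13, and the one with Il22 had 0 of the markers.

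The receptors overlapped with some markers more than with others. All 12 Trdc-gated cells with Il23r also had Tmem176a and Tmem176b, 10 of the 12 had Blk, 10 had Sox13 and 5 had 5830411N06Rik. All 15 cells with Il1r1 had Blk and 13 had Tmem176b, while 5 had Sox13 and 5 had 5830411N06Rik. Of 29 cells with Cd163l1, 26 had Tmem176b, compared with 45 of the 494 cells without it. Cells with Cd163l1 were deeper (median of 4721 UMIs, against 3810 without it), and deeper cells show more genes.

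Cd163l1 and 5830411N06Rik, alike over gates, were mostly in different Trdc-gated cells and went with different receptor chains. Of 29 cells with Cd163l1, 22 had Tcrg-V6 or Trdv4, the variable segments of a gamma-delta population known for IL-17, and 1 had Tcrg-V4. Of 45 cells with 5830411N06Rik, 3 had Tcrg-V6 or Trdv4 and 16 had Tcrg-V4. The pair was found together in 6 cells. That is 20.7% of the 29 cells with Cd163l1, beside 39 of the 494 cells without it (7.89%) that had 5830411N06Rik. The pair was thus mostly apart but not exclusive, and cells with Cd163l1 were deeper. Cells of both kinds held Il17a. The cell with 27 UMIs had 4 UMIs of 5830411N06Rik, 2 of Tcrg-V4 and no Cd163l1. A PBS well 2 cell with 7 Il17a UMIs had 11 of Cd163l1, 9 of Tcrg-V6 and 23 of Trdv4. Neither of these cells passed the Trdc gate limited to cells without Trac and with a gamma constant region.

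Cd163l1 in CD8 T cells differed from Cd163l1 in the Trdc gate. It was found in 30 CD8-gated cells with a median of 1 UMI, and none of these had Tmem176b. Of all 1898 CD8-gated cells only 12 had Tmem176b, so its absence does not set these 30 apart from the gate. In the Trdc gate the median of Cd163l1 was 4 UMIs and the highest cell had 23. Over all cells, 54 had Cd163l1 with Cd8b1, and 2 of those had Tmem176b, while 41 of the 53 without Cd8b1 did.

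Between libraries, a gene counted as measured in a gate with at least 20 UMIs over both libraries and at least 10 CPM in the higher one, and as different when past 1.5-fold. In Trdc-gated cells 6 members were measured, of which Il17a and Il1r1 reached the minimum only through PBS, so that their direction was fixed by the choice of genes. The other 4, Rora, Tmem176a, Tmem176b and Cd163l1, were lower in the IL-27 library, where 11.8% of the 7951 measured genes were. Their log2 ratios ran from -0.62 for Rora to -1.81 for Tmem176a, against a median of -0.02 over all measured genes. Without PBS well 2 only 1 of the members was past 1.5-fold, and it was Cd163l1, higher in the IL-27 library.

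The wells were uneven within each library. Tmem176b in Trdc-gated cells was 16.5, 181 and 48.2 CPM in the IL-27 wells and 57.1 and 284 CPM in the PBS wells. Tmem176a was 10.3, 126 and 25.1 CPM against 48.1 and 250.4 CPM. Cd163l1 was 8.25, 194 and 11.6 CPM against 36.1 and 195 CPM. In each of these genes IL-27 well 2 and PBS well 2 were high and the other 3 wells low, so the groups overlapped. The ratio of IL-27 over PBS was 0.461 for Cd163l1. Its log2 ratio was -1.10, compared with 0.73 against PBS well 1 alone and -1.67 against PBS well 2 alone.

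Rora in Trdc-gated cells was 20.6, 60.4 and 30.9 CPM in the IL-27 wells and 33.1 and 69.6 CPM in the PBS wells. Its log2 ratio was -0.62, and 0.10 against PBS well 1 alone. Thinned to 1000 UMIs per cell it was 1.21, from few UMIs. Every IL-27 well was below both PBS wells for Il17a in this gate, as for 12.7% of measured genes, but PBS well 1 held 1 UMI, so 0 against 1 UMI does not separate it from the IL-27 wells beyond counting error.

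**Figure D2:**
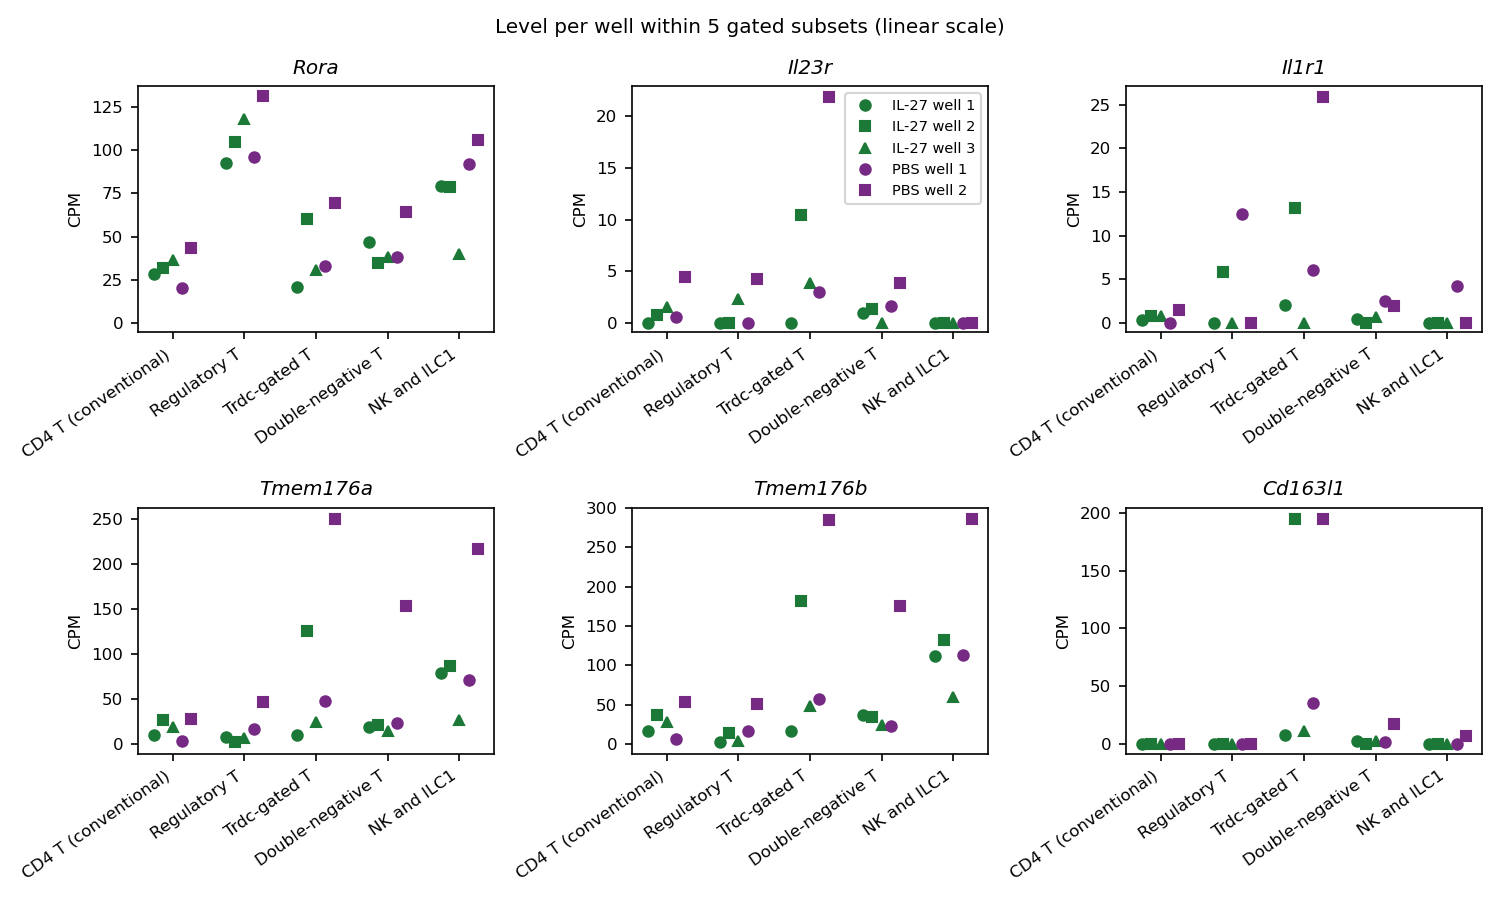
Level of 6 members (panels, CPM on a linear axis) in 5 gates, with 1 point per well: green for the 3 IL-27 wells and purple for the 2 PBS wells. In Trdc-gated cells IL-27 well 2 and PBS well 2 (squares) stand above the other wells for Tmem176a, Tmem176b and Cd163l1.

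The share of marker-positive cells ranked the wells in the same order as Tmem176a, Tmem176b and Cd163l1 did, but with different steps between wells. Marker-positive cells were 1.54%, 7.69% and 3.28% of Trdc-gated cells in the wells of IL-27, compared with 6.94% and 23.2% in those of PBS. IL-27 well 2 was close to PBS well 1 in this share, but well above it in the level of those genes. Over libraries this was 14 of 356 cells (3.93%, exact binomial 95% interval 2.17 to 6.51) in IL-27 and 27 of 167 (16.2%, 10.9 to 22.6) in PBS, with medians of 3622.5 and 4596 UMIs per Trdc-gated cell. After thinning every cell to 1000 UMIs, which left out 8 and 1 shallower cells, the shares were 1.15% (0.314 to 2.92) and 2.41% (0.660 to 6.05), from 4 cells each and with overlapping intervals, so at that depth no difference in this share was detectable. Thinned cells with at least 1 marker were 8.05% (5.41 to 11.4) in IL-27 and 18.7% (13.1 to 25.5) in PBS, with intervals that did not overlap. By well these were 3.94%, 15% and 6.61% in IL-27 and 6.94% and 27.7% in PBS. PBS well 1 thus lay within the range of the IL-27 wells, and the gap between libraries rested on PBS well 2. Before thinning, PBS well 2 gave 22 of the 27 marker-positive PBS cells, and of these 12 had Y-linked UMIs without Xist, and 1 had Xist alone.

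Within marker-positive cells, 14 in IL-27 and 27 in PBS, the ratios of the other members detected had intervals that included 1, while Il17a was at 0 in IL-27. Tmem176a was 632 CPM in IL-27 and 636 CPM in PBS, a ratio of 0.994 (95% interval 0.670 to 1.45). Its wells were uneven, at 358.5, 707 and 596 CPM in IL-27 and 251.5 and 771 CPM in PBS. Tmem176b was 774 and 701 CPM, a ratio of 1.104 (0.7705 to 1.56). Cd163l1 was 505 and 419 CPM, a ratio of 1.20 (0.763 to 1.87), but its wells were 0, 838 and 0 CPM in IL-27 and 277 and 470 CPM in PBS. All 32 IL-27 UMIs of Cd163l1 came from 3 cells of IL-27 well 2, and without that well its level in IL-27 is 0. Rora had a ratio of 0.8765 (0.337 to 2.04), Il1r1 1.61 (0.3335 to 6.78) and Il23r 1.03 (0.172 to 4.53).

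Il17a in marker-positive cells was 0 CPM in IL-27 and 183.5 CPM in PBS, where 27 of its 28 UMIs were those of 1 cell. An Il17a UMI was found in 0 of 14 IL-27 cells, which allows a share of cells with a UMI of up to 21.4% by the 3-count floor and 23.2% by the exact binomial interval. In PBS it was found in 2 of 27 cells (7.41%, 0.910 to 24.3), so a difference in the share was not detectable at this number of cells.

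Below 2 markers the PBS library was higher for part of the list, and this rested on PBS well 2. Tmem176a was 19.7 CPM in IL-27 and 65.9 CPM in PBS, a ratio of 0.299 (0.177 to 0.495), with 4.20, 61.3 and 5.98 CPM in the IL-27 wells and 20.5 and 99.9 CPM in the PBS wells. Tmem176b was 40.1 and 80.5 CPM, a ratio of 0.4985 (0.335 to 0.7405), with PBS well 1 (20.5 CPM) below IL-27 wells 2 (102 CPM) and 3 (25.9 CPM). Cd163l1 was 39.4 and 67.3 CPM, a ratio of 0.585 (0.386 to 0.889), and PBS well 1, at 3.42 CPM, was the lowest of the 5 wells. Il1r1 was 1.51 and 13.2 CPM, from 2 and 9 UMIs, and all 9 were in PBS well 2, as were the 8 Il17a UMIs below 2 markers. Rora was 31.0 and 35.1 CPM, a ratio of 0.884 (0.521 to 1.53).

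**Figure D3:**
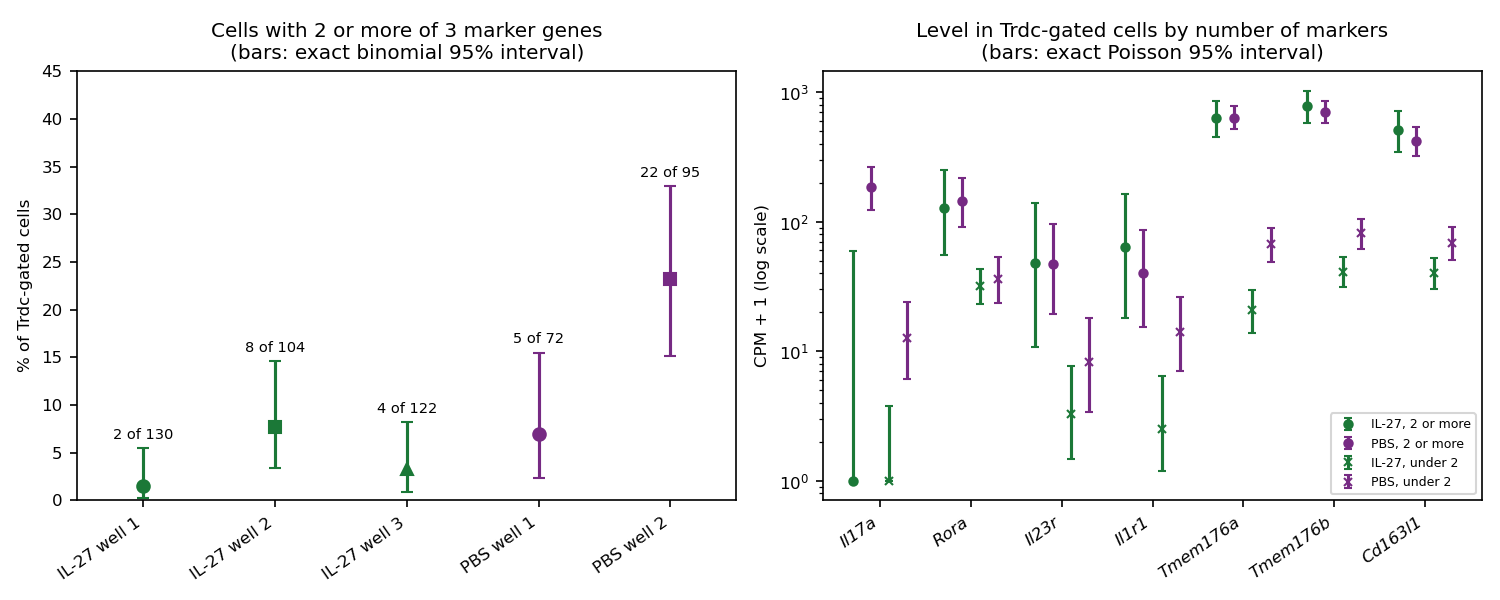
Left, share of Trdc-gated cells with at least 2 of Blk, Sox13 and 5830411N06Rik in each well, with exact binomial 95% intervals and the cell numbers. Right, level of 7 members (CPM + 1, log axis, exact Poisson 95% intervals) in Trdc-gated cells with 2 or more markers (circles) or under 2 (crosses), for IL-27 (green) and PBS (purple): the share differs between wells, from 1.54% to 23.2%, while Tmem176a, Tmem176b and Cd163l1 in marker-positive cells lie between 419 and 774 CPM over each library, from wells that are uneven (Cd163l1 from 0 to 838 CPM).

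Markers of other cells also differed between the libraries in the Trdc gate. The summed myeloid list was 144 CPM in IL-27 and 1322 CPM in PBS, with 5 of its 9 genes detected in each library. By well it was 190, 139 and 104 CPM in IL-27 and 508 and 1860 CPM in PBS. IL-27 well 2, a high well for the members, was thus not high for this list. Tyrobp, a signalling adaptor also found in innate-like lymphocytes, was 15.9 CPM in IL-27 and 346 CPM in PBS. The macrophage genes C1qa and Csf1r were at 0 in both libraries, but low values were set by the gate, which allows at most 1 UMI per cell of a gene sum with both. The haemoglobin list was 1499 CPM in IL-27 well 2 and at most 3.86 CPM in the other wells. The part of these in the member differences was not tested.

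Among 39 other genes of the pathway, 31 were measured in Trdc-gated cells, of which 17 were lower and 4 higher in the IL-27 library (11.8% and 9.92% of all measured genes were), with a median log2 ratio of -0.95. Cxcr6 was 85.3 CPM in IL-27 and 309 CPM in PBS, and Tcrg-V6 31.1 and 104 CPM. Zbtb16, the factor of innate-like T cells, was 6.50 and 38.3 CPM. It reached the minimum level only through PBS, so its direction was fixed by the choice of genes, in the count of 17 as well. The genes higher in IL-27 were the receptors Il17ra (100.4 and 62.2 CPM), Il6ra (33.2 and 14.4 CPM) and Il21r (147 and 95.7 CPM), and Irf4 (30.4 and 19.1 CPM). Zbtb16, Sox13, Ahr and Tgfbr1 were lower in every IL-27 well than in both PBS wells, and Il17ra was higher in every one (12.7% and 12.5% of measured genes did so). Without PBS well 2 the pathway genes past 1.5-fold numbered 10 in place of 21, with no share of all measured genes given for that setting.

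Conventional CD4 T cells had ratios above 1 for all 3 measured members. Of these, 1 (Tmem176a) was past 1.5-fold and higher in the IL-27 library, where 1.5% of 7923 genes were, and none was lower. Tmem176a was 10.3, 26.6 and 19.4 CPM in the IL-27 wells and 4.19 and 28.4 CPM in the PBS wells, so both PBS wells lay outside the range of the IL-27 wells, 1 on each side. Its ratio was 1.75 (1.15 to 2.74). Tmem176b was 17, 37.1 and 28.0 CPM against 6.80 and 53.9 CPM, with a log2 ratio of 1.83 against PBS well 1 and -0.99 against PBS well 2. Rora was 28.3, 31.9 and 36.6 CPM against 20.4 and 43.4 CPM, a ratio of 1.22 (0.930 to 1.62). The PBS wells were the lowest and the highest of the 5 for all 3 genes, so the sign of each ratio followed the PBS well used.

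Other pathway genes in conventional CD4 T cells showed little difference between libraries. Of 21 measured, 1 was lower (1.69% of all measured genes were) and 0 higher: the chemokine receptor Cxcr6, at 14.95 CPM in IL-27 and 67.1 CPM in PBS, which was 229 CPM in PBS well 2 but 10.5 in the other PBS well. Without PBS well 1, 14 pathway genes were past 1.5-fold, but PBS was then 158 cells. The share of all measured genes past it in that setting is not given, so this count has no background. Maf, a factor of T helper 17 and follicular cells, was 113 and 160 CPM, and Ccr6, the chemokine receptor of type 17 cells, 12.5 and 16.3 CPM.

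Regulatory T cells had less of the Tmem176 pair in the IL-27 library, from few UMIs. Of 3 measured members 2 were lower, where 9.97% of 7324 genes were, and both reached the minimum level only through PBS. Tmem176a was 8.67, 2.92 and 6.95 CPM in the IL-27 wells and 16.7 and 46.7 CPM in the PBS wells, from 7 and 15 UMIs. Tmem176b was 2.89, 14.6 and 4.64 CPM against 16.7 and 51.0 CPM, from 8 and 16 UMIs. Every IL-27 well was below both PBS wells for the pair, as for 11.3% of measured genes. Rora was 92.4, 105 and 118 CPM against 96.0 and 132 CPM, a ratio of 0.935 (0.672 to 1.32).

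Myeloid RNA also differed between the libraries in regulatory T cells. The myeloid list summed to 204 CPM in IL-27 and 1408 CPM in PBS, and 1 cell of PBS well 2 held 170 Lyz2 UMIs. Leaving out cells with Lyz2 or Tyrobp, a split chosen after the values were seen, 233 IL-27 and 91 PBS cells remained, with 6.35 and 12.3 CPM of Tmem176a and 7.26 and 24.5 CPM of Tmem176b. The IL-27 wells then overlapped PBS well 1 for Tmem176a (4.87 CPM there), and stayed below both PBS wells for Tmem176b. Among 22 measured pathway genes 5 were lower and 0 higher (8.9% of all measured genes were higher), with Ccr6 at 46.4 and 92.6 CPM, Maf at 213 and 375 CPM and Ahr at 120 and 202 CPM. Ccr6 was lower in every IL-27 well than in both PBS wells.

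Double-negative T cells had 2 of 3 measured members lower in the IL-27 library, where 4.31% of 8021 genes were. Tmem176a was 19.0, 21.0 and 14.5 CPM in the IL-27 wells and 23.3 and 154 CPM in the PBS wells, with no overlap, as for 13% of measured genes. Tmem176b was 37.1, 34.6 and 24.5 CPM against 23.3 and 175 CPM, and Rora 46.8, 34.6 and 38.3 CPM against 38.2 and 64.2 CPM, and those groups overlapped. Without PBS well 2 no member was past 1.5-fold and the log2 ratio of Tmem176b turned from -1.06 to 0.46. The myeloid list summed to 185 CPM in IL-27 and 532 CPM in PBS, with 1120 CPM in PBS well 2. C1qa and Csf1r were at 0 there, but the gate itself keeps them to at most 1 UMI per cell. The part of myeloid RNA in the result was not tested. Of 27 measured pathway genes 9 were lower and 1 (Irf4) higher, beside 2.48% higher of all measured genes.

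NK and ILC1 cells had 2 of 3 measured members lower in the IL-27 library, where 10.2% of 7455 genes were. Tmem176b was 112, 132 and 59.5 CPM in the IL-27 wells and 113 and 286 CPM in the PBS wells, and Tmem176a 79.3, 86.8 and 26.5 CPM against 71.1 and 217 CPM. Rora was 79.3, 78.6 and 39.7 CPM against 92.0 and 106 CPM, below in every IL-27 well (11.1% of measured genes were), with a ratio of 0.677 (0.459 to 0.984). Against PBS well 1 alone the log2 ratio of Tmem176b was -0.08 in place of -1.16. The gate had 0 UMIs of the cytokines in either library. Among 22 pathway genes 4 were lower and 1, Il17ra, higher (7.66% of all measured genes were higher).

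ILC2 showed no member past 1.5-fold among the 3 measured, where 12% of 2130 genes were higher and 17.7% lower. Rora was 266, 238 and 283 CPM in the IL-27 wells and 355 and 256 CPM in the PBS wells, a ratio of 0.895 (0.558 to 1.43). Tmem176b was 195 and 196 CPM in the 2 libraries, from 28 UMIs each, a ratio of 0.991 (0.566 to 1.74), so neither a 1.5-fold higher nor a 1.5-fold lower level lies outside its interval. The gate held 30 and 28 cells. Plasmacytoid dendritic cells had the Tmem176 pair lower in IL-27, where 11.9% of 6063 genes were lower, and this too rested on PBS well 2. Tmem176b was 44.8, 71.9 and 14.3 CPM in the IL-27 wells and 51.6 and 104 CPM in the PBS wells. Tmem176a was 11.2, 28.75 and 42.9 CPM against 0 and 78.7 CPM, so PBS well 1 was below every IL-27 well.

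**Figure D4:**
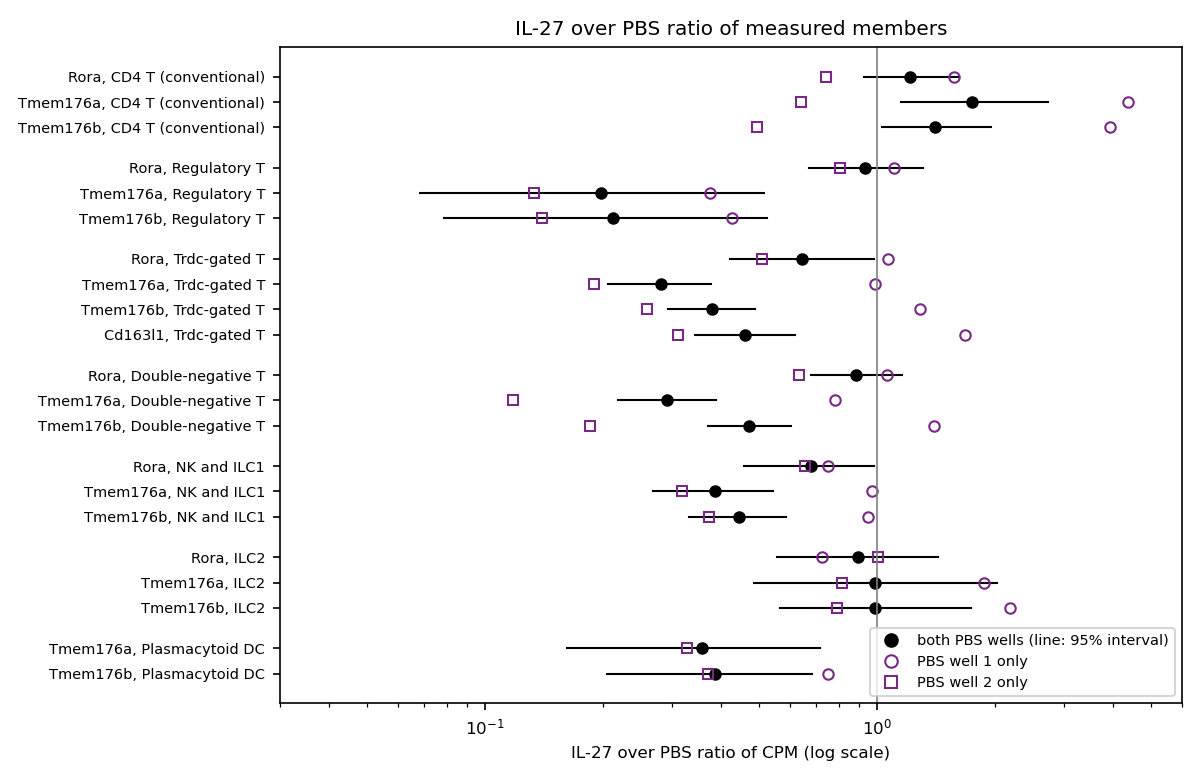
IL-27 over PBS ratio of CPM (log axis) for Rora, Tmem176a, Tmem176b and Cd163l1 in the gates where they were measured: black points and lines are the ratio to both PBS wells together with its exact 95% interval, open circles the ratio to PBS well 1 and open squares to PBS well 2. For Trdc-gated and double-negative T cells the squares lie far left of 1, whereas the circles of Tmem176b lie right of 1.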

How the data were processed

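The authors deposited unnormalized UMI counts for every gene and barcode of 1 IL-27 and 1 PBS library, and all values were whole. Cell Ranger 3.0.0 and mm10 are given by the submitters' processing notes, and software version 3.1.0 by the file headers. Whether counting used strand is not given in the sources used here. There were 20897 barcodes with 80121995 UMIs for IL-27 and 12276 with 43501501 for PBS.

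Cells with at least 200 genes and at most 10% mitochondrial UMIs were kept, and Scrublet doublets (scanpy 1.11.5) removed per well, except in PBS well 2. T gates needed at least 2 UMIs of Cd3d, Cd3e and Cd3g and at most 1 UMI each of B cell and of myeloid, plasmacytoid and mast cell genes. UMIs were summed per gate and library in CPM, with exact Poisson intervals, and shares with exact binomial (Clopper-Pearson) and ratios with exact conditional 95% intervals. A pseudocount of 1 CPM entered log2 ratios. In shares at 0 the limit is 3 counts. With 1 library per group no p-value was computed, and over 3 and 2 wells the smallest two-sided permutation p, 0.1 of 10 splits, could not pass 0.05.

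On simulated CD4 T cell counts, intervals held the true ratio for 95.8% of 10258 unchanged genes. Of 66 genes with a 2-fold change 95.5% were past 1.5-fold, as were 4.05% of unchanged genes. The smaller gates were not simulated. All members, 39 pathway genes and gate markers could be named. Another pathway gene and 1 similar gene are not reported here. For similar genes, the 3 with the highest Pearson r of log2(CPM + 10) were taken among genes with at least 50 CPM in 1 profile and 100 UMIs, without antigen receptor, mitochondrial, ribosomal and haemoglobin genes. The members and lists were chosen with earlier results of these data known. Alternatives varied cell filters, doublets, gates, barcodes, wells, scaling, depth, pseudocount and the low-count filter.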

Additional observations from a re-analysis of the deposited data

How the results depend on the processing

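Of 376 recomputed values, 308 stayed within 1.5 times (counts) or within their own counting interval, 63 moved and 5 turned direction. For the alternatives the share of all measured genes past 1.5-fold is not given, so their counts of genes have no background. The alternatives with no doublet removed, stricter cell filters and no barcodes in more than 1 well moved no count of genes and no share or level of Cd163l1 or Il17a. A pseudocount of 5 CPM moved no count of genes, and it does not enter shares or levels.

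Leaving out each well in turn gave 0 to 3 members past 1.5-fold in conventional CD4 T cells, 0 to 1 in regulatory T cells, 1 to 5 in Trdc-gated cells, 0 to 4 in double-negative T cells and 0 to 3 in NK and ILC1 cells. The pathway genes past 1.5-fold numbered 1 to 14 in conventional CD4 T cells and 10 to 23 in Trdc-gated cells. Over the same settings Cd163l1 was found in 1.19% to 5.31% of IL-27 and 4.17% to 13.7% of PBS Trdc-gated cells, at 9.97 to 90.1 CPM and 36.1 to 195 CPM. The Trdc gate held 50% to 94.7% of gated Il17a UMIs. The log2 ratios of Trdc-gated cells ran from -1.06 to 0.0951 for Rora, -2.52 to 0.361 for Tmem176b and -3.6 to 0.734 for Cd163l1, and that of Tmem176b in double-negative T cells from -2.4 to 0.463. Without PBS well 2 each turned to the higher end of its range.

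In regulatory T cells no member (0) was both measured and past 1.5-fold with a doublet score threshold of 0.25, with stricter gates, with no B or myeloid UMI allowed, and after thinning to 1000 UMIs, while 4 were without the low-count filter. The Tmem176 pair had 22 and 24 UMIs there, so settings with fewer cells or UMIs put it under the minimum of 20, while the log2 ratio of Tmem176b in those 4 settings stayed between -2.1 and -1.12. Stricter gates gave 35.6 and 102 CPM of Cd163l1 in IL-27 and PBS Trdc-gated cells. With no B or myeloid UMI allowed, 3 members were past 1.5-fold in Trdc-gated cells and Cd163l1 was 48.2 CPM in IL-27. Without the low-count filter the counts were 6 pathway genes in conventional CD4 T cells, 7 members in double-negative T cells and 4 in NK and ILC1 cells. Pathway genes in conventional CD4 T cells numbered 3 after thinning. Thinning also gave 3 members and 10 pathway genes in Trdc-gated cells, 1 member in NK and ILC1 cells, 77.8% of gated Il17a UMIs in the Trdc gate, and a log2 ratio of 1.21 for Rora in Trdc-gated cells. The cause was not tested.

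A Trdc gate without Trac and with a gamma constant region, chosen after seeing the data, gave 97.6 and 307 CPM of Cd163l1 in IL-27 and PBS. It gave 19.6% of PBS cells with Cd163l1 and 40% of gated Il17a UMIs. That 40% rests on few UMIs, as most Il17a UMIs of the Trdc gate were in cells that this stricter gate left out. No paired analysis was possible because each group is 1 library. Depth limits the cytokines, Il23r and Il1r1 most, whose UMIs were under 70 each over all cells.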
